A study of Mus musculus with 18 samples.

Results

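The erythroid and globin genes described here are 10 rows of the count table, taken by their symbols out of 24421 rows. They are the adult alpha globin genes Hba-a1 and Hba-a2, the adult beta globin genes Hbb-bs and Hbb-bt, the carbonic anhydrase genes Car1 and Car2, the transcription factor genes Gata1 and Klf1, the erythropoietin receptor gene Epor and the heme synthesis gene Alas2. All 10 symbols were found in the table. RNA was sequenced from 3 fractions (LT-HSCs, ST-HSCs, bulk-HSCs) of the bone marrow of Hoxb5-tri-mCherry mice on a C57BL/6J background, in which mCherry reports Hoxb5. Ages were 2 to 3 months for young and 23 to 25 months for aged mice, and each fraction was sequenced in 3 libraries at each age, 18 in all. Bulk-HSCs are the HSC fraction defined by surface antigens. Within it, LT-HSCs, the long-term repopulating cells, are Hoxb5-positive, and ST-HSCs, the short-term repopulating cells, are Hoxb5-negative. All 6 groups carry the same reporter allele and all were enriched for c-Kit and sorted 2 times. Whether the 3 libraries of a group come from separate or pooled mice is not given in the sources used here, so p-values measure the spread between libraries. The lineage antibodies of the sort include Ter-119, which binds erythroid cells from erythroblasts onward.

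Red cells descend from HSCs through progenitors that switch on Gata1, the master transcription factor of the erythroid and megakaryocytic lineages, and then Klf1, which binds CACCC motifs in the promoters of globin and other red cell genes. Erythropoietin, acting through the receptor encoded by Epor, keeps these progenitors alive. Alas2 starts heme synthesis in erythroblasts, the globin chains bind the heme, and carbonic anhydrases of the red cell, encoded by Car1 and Car2, convert carbon dioxide to bicarbonate. Car1 is a known early mark of erythroid commitment, whereas Car2 is also expressed outside the lineage. Globin RNA is by far the most abundant RNA of maturing erythroblasts and reticulocytes.

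The alpha globin genes are near-identical copies, which bears on how far their rows can be told apart. Of the 573 windows of 127 bases, the read length, in the coding transcript of Hba-a1, 289 (50.4%) also occur in a transcript of Hba-a2, and these are 67.5% of the windows of Hba-a2. Of the windows of Hbb-bs, 60.6% occur in Hbb-bt, and of those of Hbb-bt, 52.7% occur in Hbb-bs. Within each pair the split of reads between the rows is therefore uncertain, and the summed rows are given beside the single ones. The 250 bases before the RefSeq start are shown for the 4 members whose promoters bear most on the results: the alpha globin gene with most reads, both beta globin genes and Epor. Sequences are RefSeq's on GRCm38.p6, read 5′ to 3′ on the gene's strand, and were held for 8 of the 10 members (not for Car1 and Car2). Capitals mark matches on either strand to the GATA motif GATAA, to the Klf motif CACCC, to the letters CCAAT of the box of that name, and to the TATA-like ATATAA, and no match overlapped another in these windows.
Hba-a2, chr11:32296242-32296491, strand +: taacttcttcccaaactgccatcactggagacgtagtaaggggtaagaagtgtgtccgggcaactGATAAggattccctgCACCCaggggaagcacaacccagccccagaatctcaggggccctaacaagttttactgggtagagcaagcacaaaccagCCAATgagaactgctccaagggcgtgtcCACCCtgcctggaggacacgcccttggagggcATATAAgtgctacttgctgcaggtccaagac
Hbb-bs, chr7:103827929-103828178, strand -: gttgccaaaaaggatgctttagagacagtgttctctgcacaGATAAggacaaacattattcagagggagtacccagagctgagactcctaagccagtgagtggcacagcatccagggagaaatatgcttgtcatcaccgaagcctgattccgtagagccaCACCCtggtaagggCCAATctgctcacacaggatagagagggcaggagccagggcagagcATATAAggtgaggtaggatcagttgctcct
Hbb-bt, chr7:103813924-103814173, strand -: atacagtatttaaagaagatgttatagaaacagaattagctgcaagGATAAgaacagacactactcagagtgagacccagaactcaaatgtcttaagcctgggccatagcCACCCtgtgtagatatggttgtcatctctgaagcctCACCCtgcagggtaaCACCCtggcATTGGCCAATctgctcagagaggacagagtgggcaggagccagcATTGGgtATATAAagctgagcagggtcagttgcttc
Epor, chr9:21963577-21963826, strand -: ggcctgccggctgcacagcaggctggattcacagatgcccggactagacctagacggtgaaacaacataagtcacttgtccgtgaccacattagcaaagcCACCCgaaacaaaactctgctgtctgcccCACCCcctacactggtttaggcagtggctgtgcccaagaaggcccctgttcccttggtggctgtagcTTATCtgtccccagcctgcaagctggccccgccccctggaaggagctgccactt
The windows of Hba-a1 and Hba-a2 were 100% identical over the 247 bases that could be aligned, at an offset of 3 bases, so only the Hba-a2 window is shown. The windows of Hbb-bs and Hbb-bt were 51.0% identical without gaps. All 4 globin windows held each of the 4 motifs, and Hba-a2 held CACCC at -170 and -63, CCAAT at -91 and ATATAA at -31, counted back from the start. The Epor window held GATAA and CACCC but neither CCAAT nor ATATAA. Among the 32851 mouse promoter windows of the same length, 22.6% held GATAA, 52.0% CACCC, 33.8% CCAAT and 9.10% ATATAA. These matches describe the letters only.

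Total gene counts of a library were 16495048 to 22973844, and 3 counts, taken as the floor of a library, correspond to 0.132 to 0.176 CPM. CPM are counts scaled to a common library size with TMM factors between 0.951 and 1.03. The floor covers counting error only. A list of 14 HSC marker genes, which includes Kit and Hlf, summed to 4451 to 5570 CPM in all 18 libraries, so the sorted identity showed in every group. Values of 0 were far more common in young than in aged libraries at equal expression. For genes with a median of 20 to 50 counts, 40.5% of the values in young libraries and 11.7% of those in aged libraries were listed at 0, and at 50 to 100 counts these shares were 25.7% and 3.28%. Between 846 and 920 genes per young group (6.61% to 7.18% of those tested) were at 0 in 1 library and at 100 counts or more in another of the same group, against 89 to 130 genes per aged group. A listed 0 can thus be a failed estimate rather than an absence. Folds given below as at least a value against the floor hold only where the listed zeros are absences. Its part in the age differences of the sparse members given below was not tested. All members except Car2 had a median of 90 counts or fewer, and 7 of the 10 reached a mean of 1 CPM and were tested. The other 3, Hba-a1, Hbb-bs and Hbb-bt, fell under that level and are given as values.

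**Figure D1:**
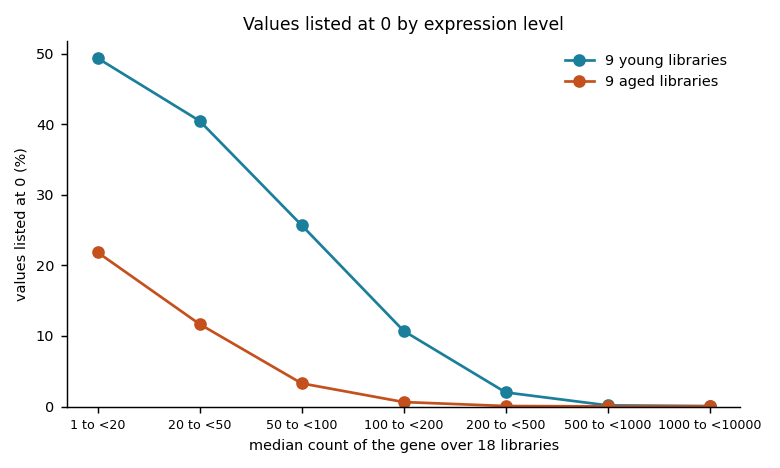
Share of values listed at 0 (percent, y axis) by the gene's median count over the 18 libraries (x axis), for the 9 young and the 9 aged libraries. The young line lies above the aged one up to 500 counts, with 25.7% against 3.28% at 50 to 100 counts.

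Alpha globin RNA was found in 8 of 9 aged libraries and in 1 of 9 young libraries. Hba-a2 (chromosome 11, 32296489 to 32297298, plus strand, GENCODE M21) carried most of it. In young mice Hba-a2 was at 0 CPM in every library except the second of LT-HSCs, which had 0.637 CPM (13 counts). In aged LT-HSCs the 3 libraries had 1.75, 3.68 and 14.8 CPM. In aged ST-HSCs they had 0, 11.6 and 3.82 CPM, and in aged bulk-HSCs 21.3, 13.8 and 30.03 CPM. The aged libraries were above the young ones without overlap in LT-HSCs and in bulk-HSCs, where 16.1% and 22.7% of all tested genes did not overlap in either direction, and 1 aged ST-HSC library was at 0 like the young ones. In bulk-HSCs Hba-a2 rose with age by at least 147-fold against the floor of 3 counts per young library, if the listed zeros of the young libraries are absences. The adjusted p was 0.0467 (edgeR quasi-likelihood test, Benjamini-Hochberg adjustment over all 12808 genes tested). This adjusted p lay between 0.0940 and 0.127 when any 1 of the 6 bulk-HSC libraries was left out, so the call rested on every library. In LT-HSCs the mean was 6.76 ± 7.07 CPM in aged against 0.212 ± 0.368 CPM in young mice (SD, n = 3), a ratio of 31.8 with an adjusted p of 0.454. In ST-HSCs the difference was at least 34.3-fold with an adjusted p of 0.133. For LT-HSCs against bulk-HSCs the difference in age effect had an adjusted p of 0.838, and that between LT-HSCs and ST-HSCs 1. All of the libraries are bulk RNA, in which fewer cells of a type and less RNA per cell cannot be told apart.

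Hba-a1 (chromosome 11, 32283511 to 32284465, plus strand) was at 0 in all 9 young libraries and in 5 of the 9 aged ones. The 4 others had 0.110 and 0.892 CPM in the second and the third aged LT-HSC libraries, and 0.0881 and 12.8 CPM in the first and the third aged bulk-HSC libraries. Its largest value thus fell in the library that also had the most Hba-a2. With both alpha globin rows added, aged bulk-HSCs had 21.4, 13.8 and 42.8 CPM against 0 in the 3 young libraries, at least 176-fold, with an adjusted p of 0.0412 in the fit with summed rows. This call too was lost in 6 of 6 fits with a library left out (adjusted p of 0.0815 to 0.127). The sum had a ratio of 33.4 in LT-HSCs (adjusted p of 0.431) and was at least 34.3-fold higher in aged ST-HSCs (adjusted p of 0.128). Over all aged libraries the sum ranged from 0 to 42.8 CPM, with a median of 11.6 CPM. The fitted difference between aged LT-HSCs and the other aged fractions was 0.47 ± 1.60 against ST-HSCs and -1.87 ± 1.65 against bulk-HSCs on the log2 scale (SE), with an adjusted p of 1 in both, and the libraries overlapped.

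Beta globin RNA was present at both ages. The table holds 4 adult beta globin rows, namely the members Hbb-bs (chromosome 7, 103826534 to 103828096, minus strand) and Hbb-bt (chromosome 7, 103812524 to 103813996, minus strand), and in addition Hbb-b1 and Hbb-b2. The first pair names the genes of the haplotype of C57BL/6 mice and the second pair those of another haplotype of the same locus, and GENCODE M21 has no symbol of the second pair. Most of the counts stood under the second pair, so the rows Hbb-bs and Hbb-bt alone do not hold all beta globin reads. Hbb-bs was above 0 in 6 of 18 libraries, with 0.441 CPM in the second young LT-HSC library, 1.10 CPM in the second aged LT-HSC library, 0.273 and 0.0992 CPM in the second and the third aged ST-HSC libraries, and 0.220 and 0.928 CPM in the first and the third aged bulk-HSC libraries. Hbb-bt was above 0 in 4 libraries, with 0.499 CPM in the second young bulk-HSC library, 2.78 CPM in the third aged LT-HSC library, and 0.506 and 0.586 CPM in the second and the third aged bulk-HSC libraries. Of the young libraries 2 had a count in either row, and of the aged libraries 7.

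Hbb-b2 was found in all 18 libraries. Its mean was 7.49 ± 3.78 CPM in young and 4.36 ± 3.45 CPM in aged LT-HSCs, 6.45 ± 5.67 and 3.595 ± 0.377 CPM in ST-HSCs, and 13.5 ± 8.46 and 8.78 ± 4.39 CPM in bulk-HSCs (SD, n = 3 each). Hbb-b1 followed the other direction. It was at 0 in 6 of 9 young and in 2 of 9 aged libraries, and its mean was 1.97 ± 3.41 CPM in young against 18.8 ± 11.6 CPM in aged bulk-HSCs, where the 3 aged libraries (16.8, 8.41 and 31.3 CPM) all lay above the young ones. Between young and aged bulk-HSCs 22.7% of all tested genes did not overlap in either direction. Neither row passed the test with age in any fraction, the smallest adjusted p being 0.709 for Hbb-b1 in bulk-HSCs. In the sum of the 4 rows, a sum chosen after seeing these values, young and aged libraries overlapped in every fraction. Young bulk-HSCs had 4.87, 28.2 and 13.8 CPM and aged bulk-HSCs 26.3, 13.1 and 45.7 CPM, a fitted log2 fold change of 0.87 ± 0.87 (SE) with an adjusted p of 0.817. The log2 fold changes were 0.18 ± 0.87 in LT-HSCs (adjusted p of 0.990) and 0.26 ± 0.87 in ST-HSCs (adjusted p of 0.996). The summed alpha globin rows had not overlapped between the ages in LT-HSCs and bulk-HSCs, while the Hba-a1 row alone overlapped in both. In aged bulk-HSCs the beta sum lay near the alpha sum, with 26.3, 13.1 and 45.7 CPM against 21.4, 13.8 and 42.8 CPM. The other aged fractions held both near and distant sums. These were 3.21, 15.6 and 5.66 CPM against 0, 11.6 and 3.82 CPM in ST-HSCs, and 0.873, 14.4 and 16.7 CPM against 1.75, 3.79 and 15.7 CPM in LT-HSCs. Among the aged libraries the sums differed most, in CPM, in the second LT-HSC library, with 14.4 CPM of beta against 3.79 CPM of alpha globin. In young libraries the beta sum was found in 9 of 9, at 3.21 to 28.2 CPM. Alpha globin was found in 1 of these 9, at 0.637 CPM. The second young bulk-HSC library had 28.2 CPM of beta and 0 CPM of alpha globin. Whether the listed zeros of alpha globin in young libraries are absences was not tested. Whether the alpha and the beta rows changed to a different degree was not tested.

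**Figure D2:**
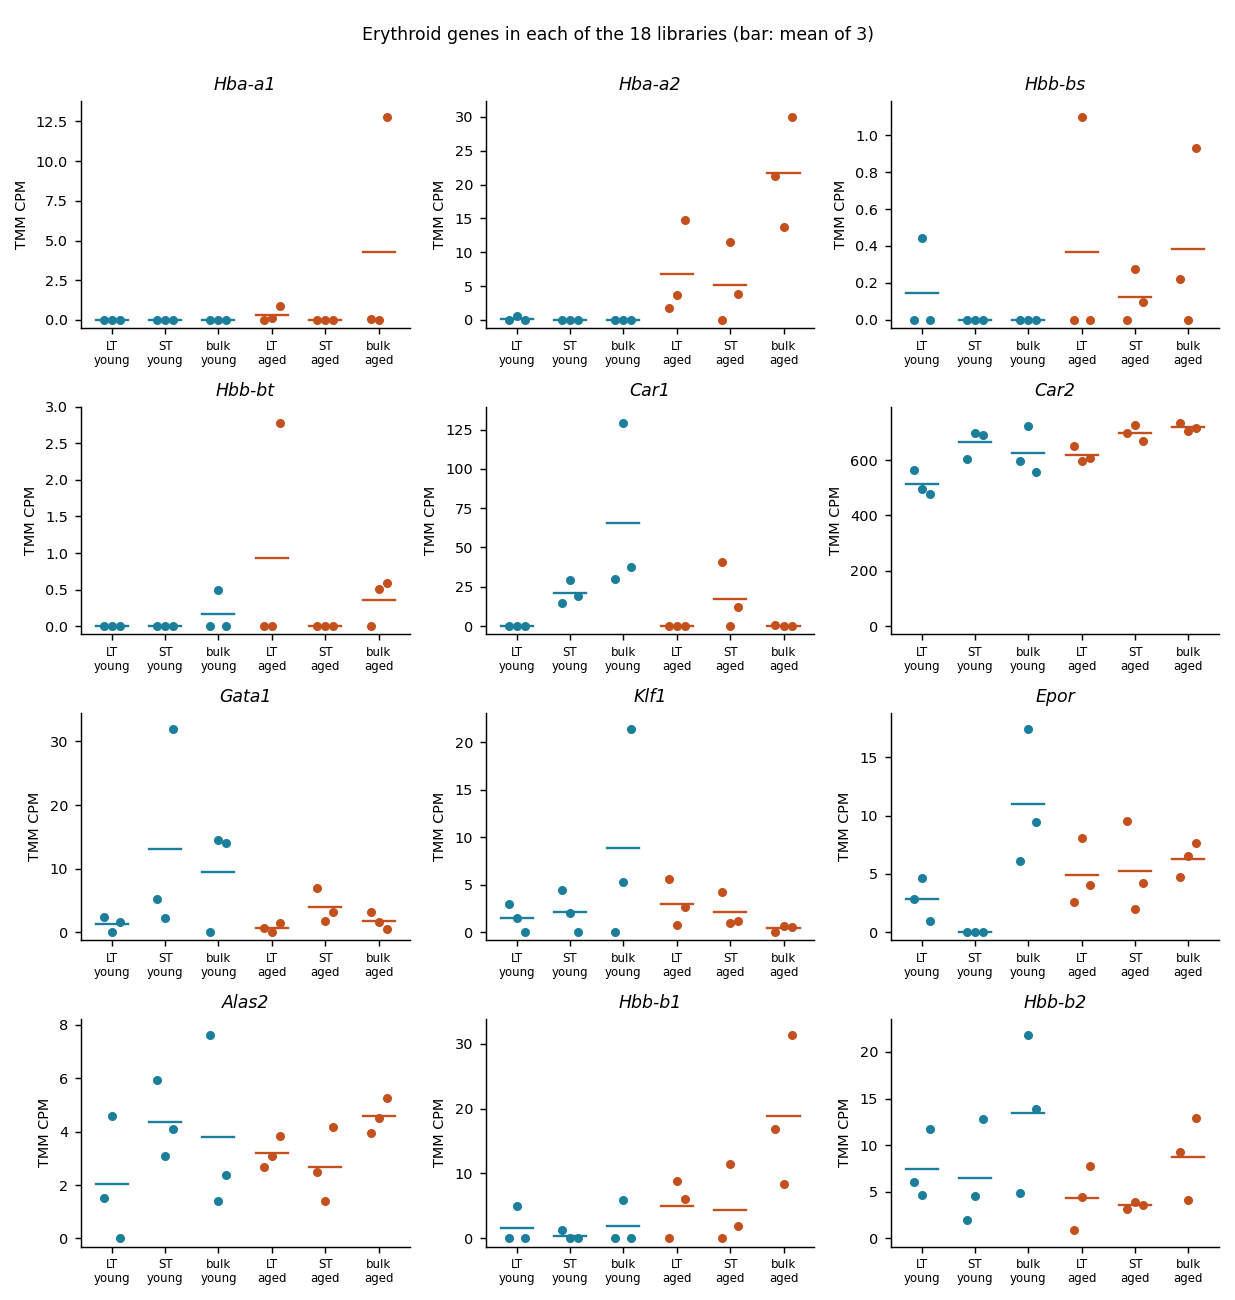
TMM-scaled CPM (y axis) of the 10 erythroid genes and of Hbb-b1 and Hbb-b2 in each library (points) of the 6 groups (x axis), with the mean of the 3 libraries as a bar, young in blue and aged in orange. Hba-a2 lies at 0 to 0.637 CPM in young and at 0 to 30.03 CPM in aged libraries, and Car1 lies at 0 in all LT-HSC libraries.

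The embryonic and theta globin rows gave little beside the adult ones. Hba-x, Hbb-bh1, Hbb-bh2, Hbb-y and Hbq1b were at 0 in all 18 libraries, and Hbq1a had 31 counts in the first aged bulk-HSC library alone. Of the 11 other globin symbols listed 8 were in the table and 2, Hbb-b1 and Hbb-b2, were tested.

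Markers of red cells other than globins were compared next. The list of defining red cell markers held 13 genes outside the members, of which 11 were in the table and 9 had a count in some library. Slc4a1, which encodes the anion exchanger band 3 of the red cell membrane, had 23 counts in the second young LT-HSC library and 0 elsewhere. The most abundant markers were Hemgn and Bpgm, which had counts in every library, followed by Trim58. Summed over the list, the level was 31.4 to 70.0 CPM in young and 57.9 to 69.5 CPM in aged LT-HSCs, 73.9 to 96.9 and 87.0 to 93.4 CPM in ST-HSCs, and 78.7 to 124 and 57.1 to 78.7 CPM in bulk-HSCs. In bulk-HSCs, where alpha globin rose, the 3 aged libraries (78.7, 57.1 and 67.4 CPM) did not exceed the lowest young one. Without Hemgn and Bpgm, a sum that was not planned, the level was 10.9, 58.7 and 40.6 CPM in young and 3.88, 7.75 and 4.93 CPM in aged bulk-HSCs. Between these groups 22.7% of all tested genes did not overlap in either direction. Ermap was the largest of the remaining markers in each young bulk-HSC library, with 115, 677 and 365 counts. In the aged ones Ermap had 24, 7 and 0 counts. Trim58 had 46, 323 and 291 counts in young and 51, 124 and 68 in aged bulk-HSCs. The part of red cell RNA in these values was not tested. The third aged bulk-HSC library, with the most alpha globin (42.8 CPM), had 5 of the 11 markers above 0, as had the first young one, in which alpha globin was at 0. Of the 5 red cell markers tested none passed edgeR in an age comparison, with 1, 0 and 1 under an unadjusted p of 0.05 in LT-HSCs, ST-HSCs and bulk-HSCs (8.81%, 9.67% and 13.3% of all genes tested), and DESeq2 called Ermap lower in aged bulk-HSCs and Hemgn higher in aged LT-HSCs.

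**Figure D3:**
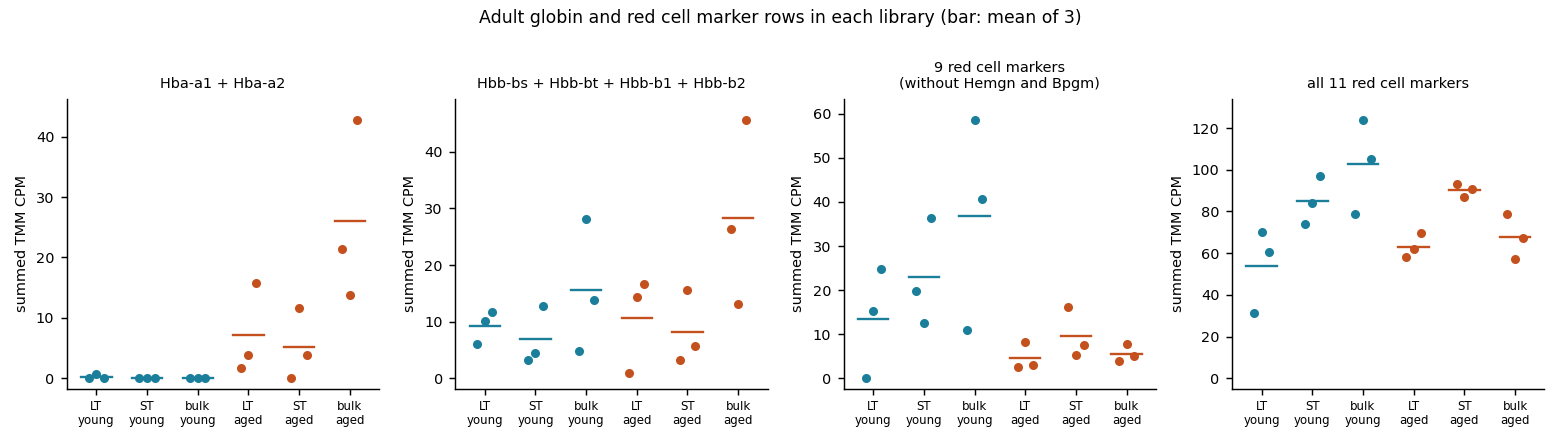
Summed TMM-scaled CPM (y axis) of the alpha globin rows, of the 4 adult beta globin rows, of 9 red cell markers and of all 11 in each library (points; bar, mean of 3) of the 6 groups (x axis). Aged bulk-HSCs lie at 13.8 to 42.8 CPM for alpha globin, with young ones at 0, and the 9 markers lie at 3.88 to 7.75 CPM in aged and 10.9 to 58.7 CPM in young bulk-HSCs. The 9 markers are the list without Hemgn and Bpgm, and 22.7% of all tested genes did not overlap between young and aged bulk-HSCs.

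Markers of other blood cells were compared in the same way. Neutrophil markers (13 genes, of which Mpo, Retnlg and Fcnb were at 0 throughout) summed to 0 to 8.17 CPM in young and 0 to 21.0 CPM in aged libraries. Macrophage markers (13 genes, led by Cd163) summed to 10.2 to 52.3 CPM in young and 43.96 to 109.9 CPM in aged LT-HSCs, and to 50.5 to 75.8 and 47.98 to 117 CPM in ST-HSCs. In bulk-HSCs, in which Hba-a2 rose and Car1 fell with age, they summed to 83.8 to 124 CPM in young and 37.4 to 41.98 CPM in aged libraries, without overlap, and DESeq2 called Adgre1, C1qc and C1qb lower in aged mice there. Basophil, mast cell and eosinophil markers (10 genes, 5 at 0 throughout, led by Cpa3) summed to 0 to 6.10 and 0.472 to 7.09 CPM. B cell markers (11 genes, with Ms4a1, Pax5 and Igll1 at 0) summed to 88.5 to 160 CPM in young and 188 to 277 CPM in aged libraries, led by Cd74, and the plasma cell gene Jchain reached 44.3 CPM in the second aged ST-HSC library and 59.3 CPM in the first aged bulk-HSC library. T and NK cell markers (10 of 11 genes in the table, with Cd3e, Cd3g, Cd8a, Cd8b1 and Gzma at 0) summed to 2.95 to 42.4 and 33.6 to 146 CPM, led by Klrb1c. Megakaryocyte and platelet markers (13 genes, with Gp6 at 0, led by Mmrn1) summed to 720 to 1015 CPM in young and 1069 to 1229 CPM in aged libraries. Between the ages, the B cell and the megakaryocyte and platelet sums did not overlap in any fraction, and the T and NK cell sums overlapped in ST-HSCs alone. The macrophage sums were apart in bulk-HSCs, and the basophil, mast cell and eosinophil sums were apart in LT-HSCs. Of all tested genes, 16.1%, 17.8% and 22.7% did not overlap with age in LT-HSCs, ST-HSCs and bulk-HSCs, in either direction. A mean of 1 CPM was reached by 3 of the 11 B cell markers and 4 of the T and NK cell markers. It was also reached by 12 of the 13 megakaryocyte and platelet markers. Whether such cells were in the sorted fractions, and their part in the globin and Car1 values, was not tested.

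Car1 (chromosome 3, 14766216 to 14808368, minus strand), which encodes the carbonic anhydrase I of red cells, was at 0 in all 6 LT-HSC libraries. In young ST-HSCs it had 14.5, 29.2 and 19.0 CPM, and in young bulk-HSCs 30.2, 129 and 37.8 CPM. Aged ST-HSCs had 40.6, 0 and 11.96 CPM. Aged bulk-HSCs had 0.441, 0 and 0 CPM, under every young bulk-HSC library (22.7% of all tested genes did not overlap here in either direction). Car1 fell with age in bulk-HSCs, from 65.7 ± 55.1 to 0.147 ± 0.254 CPM (SD, n = 3 each), a fitted log2 fold change of -8.68 ± 1.84 (SE) with an adjusted p of 0.0262. The adjusted p lay between 0.0359 and 0.119 with a bulk-HSC library left out, and the call was lost without any 1 of the 3 aged libraries or without the second young library. Among young mice LT-HSCs were below bulk-HSCs by at least 406-fold against the floor (adjusted p of 0.0488), a call that held in 1 of the 6 fits with a library left out, that without the third young bulk-HSC library. Against young ST-HSCs the difference was at least 129-fold, without overlap, and its adjusted p of 0.0652 missed the threshold. Between these groups 12.1% of all tested genes did not overlap in either direction. In aged mice LT-HSCs were at least 108-fold lower than ST-HSCs on average, but overlapped with the ST-HSC library at 0 (adjusted p of 0.299). The 3 genes most like Car1 across the 18 libraries were Ermap, a blood group antigen gene of the red cell membrane, Spc24 and Lrrc59, with Spearman's rho of 0.875, 0.847 and 0.839 on log2(CPM + 0.5). Ermap had 6.44, 30.7 and 17.05 CPM in young and 1.06, 0.354 and 0 CPM in aged bulk-HSCs.

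Car2 (chromosome 3, 14886273 to 14900770, plus strand), which encodes carbonic anhydrase II, was the only member with a high level in every library, between 8150 and 16674 counts. The mean of LT-HSCs was the lowest of the fractions at both ages. Young LT-HSCs had 564, 497 and 477 CPM, young ST-HSCs 603, 697 and 692 CPM, and young bulk-HSCs 596, 722 and 556 CPM. Aged LT-HSCs had 652, 597 and 609 CPM, aged ST-HSCs 696, 728 and 669 CPM, and aged bulk-HSCs 735, 704 and 716 CPM. LT-HSC libraries lay under the ST-HSC libraries without overlap at both ages, and 12.1% of all tested genes in young and 15.01% in aged mice did not overlap between these fractions, in either direction. The log2 fold change of young LT-HSCs against ST-HSCs was -0.37 ± 0.10 (SE), with an adjusted p of 0.124. Aged LT-HSCs lay above young ones without overlap, by a ratio of 1.21 (log2 0.27 ± 0.10, adjusted p of 0.374), and 16.1% of all tested genes did not overlap between these groups. The log2 fold changes with age were 0.07 ± 0.10 in ST-HSCs and 0.20 ± 0.10 in bulk-HSCs, with adjusted p of 0.966 and 0.411. None of these differences passed the edgeR test, and DESeq2 called the lower level of young LT-HSCs against ST-HSCs. Of 14 other carbonic anhydrase genes 7 were tested and none passed edgeR or DESeq2 in an age comparison. The smallest p was that of Car5b in bulk-HSCs, with a log2 fold change of 2.57 ± 1.07 (unadjusted p of 0.0271, adjusted p of 0.289), the single one of the 7 under an unadjusted p of 0.05 there, beside 13.3% of all genes tested.

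Gata1 (chromosome X, 7959260 to 7978071, minus strand) was detected in 15 of 18 libraries and varied widely within groups. Young LT-HSCs had 2.40, 0 and 1.58 CPM, young ST-HSCs 5.24, 2.22 and 32.0 CPM, and young bulk-HSCs 0, 14.5 and 13.97 CPM. Aged LT-HSCs had 0.600, 0 and 1.47 CPM, aged ST-HSCs 6.91, 1.77 and 3.13 CPM, and aged bulk-HSCs 3.17, 1.57 and 0.537 CPM. At both ages the LT-HSC libraries had the lowest mean, and in aged mice they lay under the ST-HSC libraries without overlap. Between these aged groups 15.01% of all tested genes did not overlap in either direction. The log2 fold changes with age were -0.93 ± 1.74, -1.74 ± 1.75 and -2.43 ± 1.79 in LT-HSCs, ST-HSCs and bulk-HSCs (SE), with adjusted p of 0.975, 0.916 and 0.674, and the differences between fractions had adjusted p of 0.584 or more. Without the third young ST-HSC library the fitted change in ST-HSCs turned positive, at 0.08, with an adjusted p of 1.

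Klf1 (chromosome 8, 84901928 to 84905291, plus strand) was detected in 14 libraries. Young LT-HSCs had 2.995, 1.52 and 0 CPM, young ST-HSCs 4.49, 2.04 and 0 CPM, and young bulk-HSCs 0, 5.31 and 21.4 CPM. Aged LT-HSCs had 5.62, 0.769 and 2.68 CPM, aged ST-HSCs 4.199, 0.955 and 1.14 CPM, and aged bulk-HSCs 0, 0.658 and 0.537 CPM. The young and aged libraries overlapped in every fraction. The largest difference with age was that in bulk-HSCs, a log2 fold change of -4.46 ± 2.30 with an adjusted p of 0.436. Aged LT-HSCs lay above aged bulk-HSCs without overlap, with an adjusted p of 1. Between these groups 15.1% of all tested genes did not overlap in either direction. In the aged bulk-HSC libraries, which had 21.3, 13.8 and 30.03 CPM of Hba-a2, Klf1 was at 0, 0.658 and 0.537 CPM, at most 13 counts. Whether these levels were related was not tested.

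Of 24 other transcription factors of the erythroid programme all were tested, and 1 passed edgeR in an age comparison, Myb, a factor of proliferating progenitors. Myb had 746, 742 and 622 CPM in young and 479, 470 and 458 CPM in aged bulk-HSCs, all of the aged libraries being lower (22.7% of all tested genes did not overlap here in either direction). It fell by 0.58 ± 0.11 on the log2 scale (adjusted p of 0.00982, and 0.0508 without the third aged library), while in LT-HSCs the log2 fold change was 0.05 ± 0.11 and in ST-HSCs -0.13 ± 0.11, with adjusted p of 0.976 and 0.869. The LT-HSC age effect less the bulk-HSC one, 0.64 ± 0.16, had an adjusted p of 0.390 with edgeR and was called by DESeq2. The medians of the list's log2 fold changes with age were -0.016, 0.012 and 0.14 in LT-HSCs, ST-HSCs and bulk-HSCs, beside 0.036, 0.025 and 0.031 over all genes tested. None of the 24 factors passed edgeR between fractions in young or aged mice, with 3 under an unadjusted p of 0.05 for young LT-HSCs against ST-HSCs (10.4% of all genes tested), and DESeq2 called Myb lower there and in young LT-HSCs against bulk-HSCs. With age DESeq2 called Gata2 and Fli1 in ST-HSCs and Lmo2 and Myb in bulk-HSCs.

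Epor (chromosome 9, 21958897 to 21963506, minus strand) differed most clearly in young ST-HSCs, where all 3 libraries were at 0. Young LT-HSCs had 2.83, 4.65 and 0.996 CPM and young bulk-HSCs 6.10, 17.4 and 9.44 CPM. Aged LT-HSCs had 2.62, 8.08 and 4.04 CPM, aged ST-HSCs 9.53, 2.00 and 4.22 CPM, and aged bulk-HSCs 4.71, 6.58 and 7.62 CPM. Every aged ST-HSC library was thus above the young ones, and in the other 5 groups the gene was found in every library. Between young and aged ST-HSCs 17.8% of all tested genes did not overlap in either direction. In ST-HSCs Epor rose with age by at least 35.2-fold against the floor (adjusted p of 0.00434). In young mice it was higher in LT-HSCs than in ST-HSCs, by at least 18.9-fold (adjusted p of 0.0117). Both calls held in 6 of 6 fits with a library left out, with adjusted p of 0.00609 to 0.0173 and of 0.00907 to 0.0374. The call between the young fractions was lost when same-numbered libraries of one age were blocked in the fit. With only the libraries of young and aged ST-HSCs in the fit the adjusted p of the age difference was 0.211, and with only young LT-HSCs and ST-HSCs in the fit that of the second difference was 0.989. Both comparisons share the young ST-HSC libraries, and the median of 90 counts puts Epor among the genes of which 25.7% of values in young libraries are listed at 0. With age the log2 fold change in LT-HSCs was 0.79 ± 0.94 and in bulk-HSCs -0.80 ± 0.94, with adjusted p of 0.939 and 0.859 and overlapping libraries. Young LT-HSCs lay under young bulk-HSCs without overlap (log2 fold change of -1.96 ± 0.97, adjusted p of 0.466). Between these groups 12.2% of all tested genes did not overlap in either direction. The LT-HSC age effect less the ST-HSC one had an unadjusted p of 8.51e-05 and an adjusted p of 0.295 with edgeR, and was called by DESeq2.

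Downstream of the receptor, 21 of 22 listed signalling genes were tested. The one that passed edgeR in an age comparison was Cish, a feedback inhibitor that Stat5 induces. Cish had 98.5, 157 and 137 CPM in young and 42.4, 30.3 and 50.4 CPM in aged bulk-HSCs, and fell by 1.67 ± 0.41 on the log2 scale (adjusted p of 0.0393). With a bulk-HSC library left out the adjusted p was 0.0440 to 0.177, and the call held only without the first young library. In ST-HSCs its log2 fold change was -1.11 ± 0.40 and in LT-HSCs -0.60 ± 0.40, with adjusted p of 0.279 and 0.781. Its fitted change was thus negative in all 3 fractions, and LT-HSCs differed in it from bulk-HSCs by 1.079 ± 0.56 and from ST-HSCs by 0.51 ± 0.56, with adjusted p of 0.851 and 1. The medians of the list were 0.042, 0.092 and 0.077 in LT-HSCs, ST-HSCs and bulk-HSCs on the log2 scale. DESeq2 called 1, 2 and 3 of these genes in the 3 fractions, namely Socs2 in LT-HSCs, Socs2 and Socs3 in ST-HSCs, and Gab2, Cish and Socs3 in bulk-HSCs.

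Alas2 (chromosome X, 150547375 to 150570638, plus strand), the erythroid enzyme of the first step of heme synthesis, was found in 17 of 18 libraries at low levels. Young LT-HSCs had 1.52, 4.60 and 0 CPM, young ST-HSCs 5.95, 3.08 and 4.09 CPM, and young bulk-HSCs 7.61, 1.41 and 2.38 CPM. Aged LT-HSCs had 2.67, 3.08 and 3.83 CPM, aged ST-HSCs 2.48, 1.41 and 4.17 CPM, and aged bulk-HSCs 3.96, 4.51 and 5.27 CPM. The groups overlapped in every age comparison, and the log2 fold changes were 0.64 ± 1.299, -0.70 ± 1.298 and 0.27 ± 1.29 in LT-HSCs, ST-HSCs and bulk-HSCs, each with an adjusted p of 0.975 or more. The standard errors exceeded each of these differences.

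Of 15 other genes of heme synthesis 14 were tested, and none passed edgeR or DESeq2 in an age comparison or between fractions. With edgeR 1, 0 and 1 of the 14 were under an unadjusted p of 0.05 in LT-HSCs, ST-HSCs and bulk-HSCs, beside 8.81%, 9.67% and 13.3% of all genes tested. The smallest adjusted p was that of Ppox, protoporphyrinogen oxidase, in bulk-HSCs, with a log2 fold change of -0.61 ± 0.23 (adjusted p of 0.227). The medians of the list were 0.37, 0.10 and -0.0063 in the 3 fractions. All 15 genes of iron uptake and storage were tested and none passed edgeR with age, with 0, 0 and 2 under an unadjusted p of 0.05, beside the same shares of all genes. The smallest adjusted p was that of Aco1, the iron-sensing regulator of ferritin and transferrin receptor mRNA, in bulk-HSCs (log2 fold change of 0.89 ± 0.24, adjusted p of 0.0687), and DESeq2 called Aco1 and Tfrc there. The medians were -0.054, -0.12 and -0.20.

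Genes of later red cell stages were taken as a list of late genes and one of membrane genes. Of 23 late red cell genes 17 were tested, and the one that passed edgeR with age was Cat, catalase, which removes hydrogen peroxide. Cat had 150, 122 and 132 CPM in young and 86.7, 87.9 and 78.6 CPM in aged LT-HSCs. In ST-HSCs it had 167, 132 and 135 CPM in young and 97.8, 96.98 and 76.9 CPM in aged mice. It fell by 0.67 ± 0.14 on the log2 scale in LT-HSCs (adjusted p of 0.0411) and by 0.68 ± 0.14 in ST-HSCs (adjusted p of 0.0284), and in bulk-HSCs its log2 fold change was -0.44 ± 0.14 (adjusted p of 0.133). The call in LT-HSCs held only without the second young library (adjusted p of 0.0252 to 0.184 with a library left out) and that in ST-HSCs only without the second or the third young library (0.0356 to 0.134). Catalase is expressed in most cell types. DESeq2 called Cat lower with age in each fraction and Hemgn higher in LT-HSCs. The medians of the list were -0.067, 0.081 and -0.00085 in LT-HSCs, ST-HSCs and bulk-HSCs. Of 20 genes of the red cell membrane 11 were tested and none passed edgeR with age, with 1, 2 and 3 under an unadjusted p of 0.05, beside 8.81%, 9.67% and 13.3% of all genes tested, while DESeq2 called 0, 1 and 2, all lower in aged mice (Gypc, Ermap and Cd47). The smallest edgeR value was that of Cd47 in bulk-HSCs, with a log2 fold change of -0.38 ± 0.13 (adjusted p of 0.164). The medians were -0.13, -0.21 and 0.060.

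Of 24 genes used as marks of erythroid-primed progenitors 23 were tested, and 1 passed edgeR with age. Tmem158 had 4.91, 3.49 and 9.82 CPM in young and 24.5, 30.3 and 21.0 CPM in aged ST-HSCs, and rose by 2.06 ± 0.44 on the log2 scale (adjusted p of 0.0344). It was also higher in young LT-HSCs (37.6, 18.7 and 23.3 CPM) than in young ST-HSCs, by 2.13 ± 0.44 (adjusted p of 0.0423). The first call held only without the third young ST-HSC library and the second in 2 of 6 fits with a library left out (adjusted p of 0.0131 to 0.135 and of 0.0185 to 0.135). Slc22a3, a cation transporter gene, went the other way between fractions. It had 19.8, 22.0 and 12.2 CPM in young LT-HSCs, 82.5, 65.5 and 90.3 CPM in young ST-HSCs and 51.6, 57.0 and 51.8 CPM in young bulk-HSCs. Its log2 fold change in LT-HSCs was -2.14 ± 0.28 against ST-HSCs (adjusted p of 0.00102) and -1.57 ± 0.27 against bulk-HSCs (adjusted p of 0.0157), the libraries not overlapping. In these comparisons 12.1% and 12.2% of all tested genes did not overlap in either direction. Both calls held in 6 of 6 fits with a library left out. With only the compared groups in the fit the adjusted p were 0.0655 and 0.863. In aged mice the first of these was -1.67 ± 0.27 with an adjusted p of 0.0607. With age its log2 fold changes were 0.31 ± 0.27, -0.16 ± 0.26 and -0.24 ± 0.26 in LT-HSCs, ST-HSCs and bulk-HSCs, none of which passed. With age DESeq2 called more of this list, namely Muc13 (higher) and Csf2rb (lower) in LT-HSCs, Nt5c3 and Tmem158 (higher) and Csf2rb (lower) in ST-HSCs, and Nfia and Nt5c3 (higher) and Csf2rb (lower) in bulk-HSCs. For Csf2rb, which encodes a shared chain of cytokine receptors, edgeR gave log2 fold changes of -2.25 ± 0.51, -1.57 ± 0.49 and -1.92 ± 0.50 in the 3 fractions, with adjusted p of 0.0610, 0.177 and 0.0564. The medians of this list with age were 0.048, 0.10 and 0.13.

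**Figure D4:**
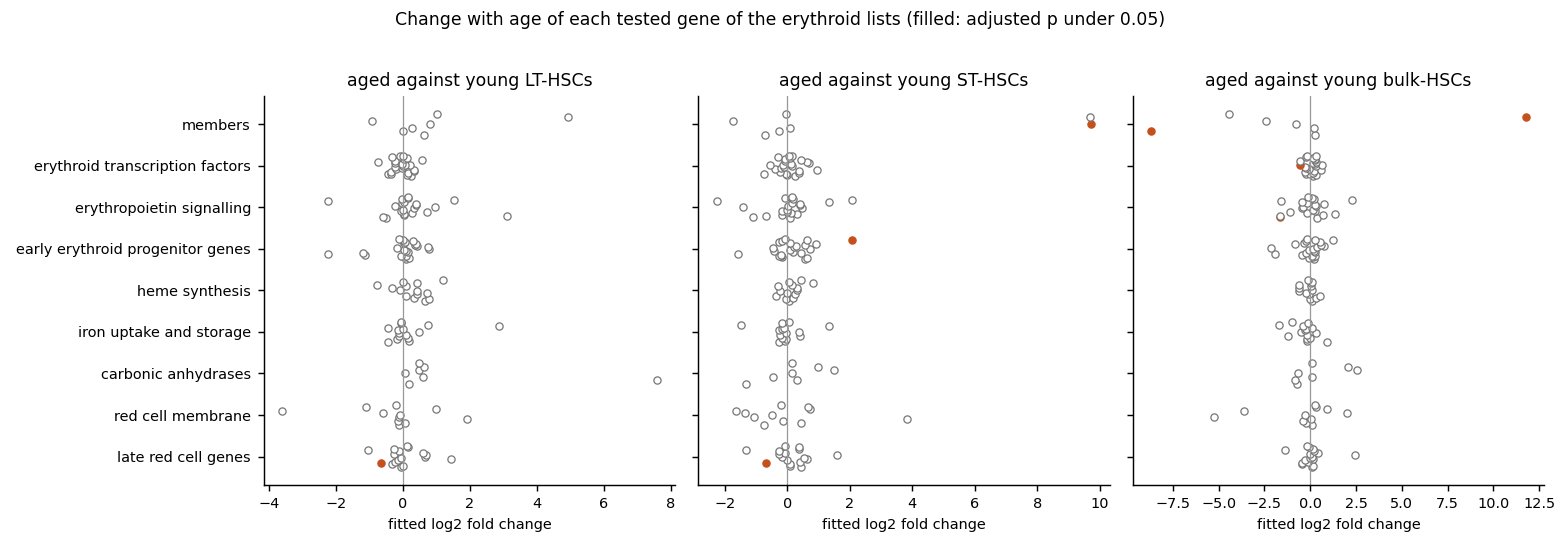
Fitted log2 fold change with age (x axis) of each tested gene (points) of the 10 erythroid members and of 8 erythroid gene lists (y axis) in LT-HSCs, ST-HSCs and bulk-HSCs, filled where the adjusted p is under 0.05. Most points lie near 0, and the filled ones are Epor, Hba-a2 and Car1 among the members and Myb, Cish, Tmem158 and Cat among the lists; values against groups at 0 are not bounds.

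Counted over the members, few calls were made in any comparison. With age, 0 of the 7 tested members passed edgeR in LT-HSCs, where 0.445% of all tested genes were called, with 2 of the 7 under an unadjusted p of 0.05 (8.81% of all tested genes) and 0 called by DESeq2. In ST-HSCs 1 of 7 passed (Epor, higher), beside 0.851% of all genes. In bulk-HSCs 2 of 7 passed (Hba-a2 higher and Car1 lower), beside 1.98% of all genes. Between young LT-HSCs and ST-HSCs 1 passed (Epor), beside 0.429% of all genes, and for young LT-HSCs against bulk-HSCs 1 passed (Car1), beside 0.273%. In aged mice 0 members passed between LT-HSCs and ST-HSCs, beside 0.00781% of all genes, and 0 between LT-HSCs and bulk-HSCs, beside 0% of all genes (421 genes under an unadjusted p of 0.05, and 32 called by DESeq2). In each of these 1 member was under an unadjusted p of 0.05 (3.41% and 3.29% of all genes), and DESeq2 called 1 (Car1) in the first and 0 in the second. The age effect differed between LT-HSCs and ST-HSCs for 0 members, beside 0% of all genes (502 under an unadjusted p of 0.05, and 83 called by DESeq2), and between LT-HSCs and bulk-HSCs for 0 members, beside 0.00781%, with 1 member under an unadjusted p of 0.05 in each (3.92% and 5.82% of all genes) and 1 (Epor) and 0 called by DESeq2. The median log2 fold changes of the 7 members with age were 0.64, -0.05 and -0.80 in LT-HSCs, ST-HSCs and bulk-HSCs, which are medians of values of both signs.

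Per length, taken as CPM per kilobase of annotated exon, Car2 stood first of the 10 members in each of the 6 groups, with means between 212 and 297. The next place changed with age and fraction. In young mice it was held by Epor in LT-HSCs (1.42 ± 0.919) and by Car1 in ST-HSCs (16.7 ± 6.05) and bulk-HSCs (52.7 ± 44.1). In aged mice it was held by Hba-a2 in LT-HSCs (10.1 ± 10.6) and bulk-HSCs (32.5 ± 12.2), and by Car1 in ST-HSCs (14.04 ± 16.7). In aged bulk-HSCs Car1 was the last of the 10, at 0.118 ± 0.204. Gata1, Klf1, Epor and Alas2 had means of 0.260 to 5.82 in all groups where they were detected. Car2 lay above the next member without overlap in every group. Below it, the libraries of most neighbours in the order overlapped. The exceptions were Car1 above Klf1 in young bulk-HSCs, Alas2 above Hbb-bs in aged ST-HSCs, and in aged bulk-HSCs Hba-a2 above Hba-a1, Epor above Alas2 and Alas2 above Gata1. In young LT-HSCs, young ST-HSCs and aged LT-HSCs no other neighbours were apart. The places of the globin rows depend on how reads were split between near-identical rows. Most beta globin counts stood under Hbb-b1 and Hbb-b2, which are not ranked here.

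**Figure D5:**
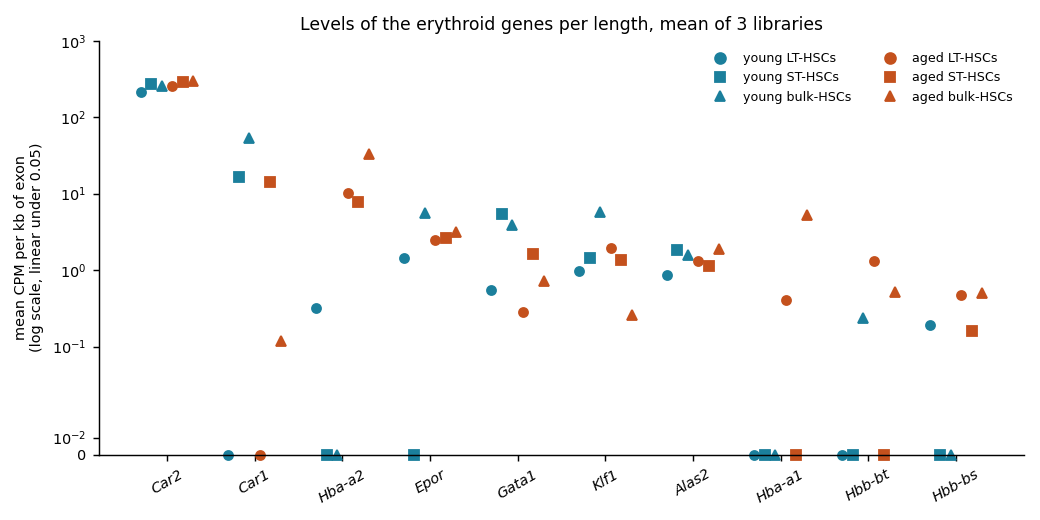
Mean level per length (CPM per kilobase of exon, log y axis, linear under 0.05) of the 10 erythroid genes (x axis, ordered by their mean) in the 6 groups, by symbol and colour; each point is the mean of 3 libraries. Car2 lies between 212 and 297 in all groups, whereas Car1 runs from 0 in both LT-HSC groups to 52.7 in young bulk-HSCs.

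The genes most like the sparse members across the 18 libraries were given by rank, as a description. For the summed alpha globin rows they were Ccnd1, C1qtnf4 and Tdrd9 (Spearman's rho of 0.896, 0.894 and 0.890), for Gata1 they were Snrpc, Dtymk and Clta (0.897, 0.880 and 0.841), for Klf1 Tti2, Snord17 and Tgtp2 (0.857, 0.835 and 0.808), and for Epor Cplx2, H1fx and AI661453 (0.820, 0.793 and 0.783). None of these stands in the lists used here. The points share libraries, age and the pattern of listed zeros and were drawn from the 12808 genes tested.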

How the data were processed

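RNA was sequenced from 18 libraries, 3 in each of 6 groups, grouped by the labels. The deposited values are whole-number estimated counts per gene symbol, which the authors made by aligning paired reads of 127 bases to mm10 with HISAT2 2.1.0 and quantifying them with StringTie 1.3.4d (SAMtools 1.7). The step from StringTie to counts and the annotation are not given in the sources used here. Libraries were prepared with ribosomal RNA depletion. From these counts, 12808 of 24421 genes with a mean of at least 1 CPM were tested with the quasi-likelihood test of edgeR 4.0.16 (R 4.3.3), with 6 group means over all 18 libraries, TMM factors and Benjamini-Hochberg adjustment, at an adjusted p under 0.05. The study's own edgeR version was 3.22.5. Standard errors are the log2 fold change over the square root of F. The floor is 3 counts per library. Totals were 16495048 to 22973844 counts. The tests were checked on simulated counts with the same spread for every gene and no excess of zeros in young libraries. That check therefore does not cover the sparse members. Alternatives were other normalizations and filters, DESeq2 1.42.0, a replicate block, only the compared groups, merged globin pairs and leaving out each library, and 1, the summed 4 adult beta globin rows, was chosen after seeing the data.

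The members and gene lists were chosen with earlier results of these data known. All members are named. From each other list up to 4 genes past the threshold in any of 9 comparisons are named, and otherwise the gene of smallest unadjusted p with age. Marker lists are given by sums, markers at 0 (some red cell markers are not reported here by name) and the most abundant, and the 3 genes most like a member by Spearman's rho. Exceptions named beside these, such as genes called by DESeq2 alone, were chosen after their values were seen. Coordinates are GENCODE M21 on GRCm38, and promoters RefSeq on GRCm38.p6. Columns of other samples numbered 0.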

Additional observations from a re-analysis of the deposited data

How the results depend on the processing

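The counts of called members were small and moved with the processing. With age in ST-HSCs 1 member was called, against 2 with DESeq2, and 0 with only the groups compared or with at least 10 counts in every library. In bulk-HSCs 2 were called, against 1 with library size alone, 0 with at least 10 counts in every library, and 0 to 1 with a library left out. Between young LT-HSCs and ST-HSCs 1 was called, against 2 with no filter, 3 with DESeq2, and 0 with only the groups compared or at least 10 counts. Between young LT-HSCs and bulk-HSCs 1 was called, against 0 with library size alone, at least 10 counts or only the groups compared, and 0 to 1 with a library left out. In aged LT-HSCs against ST-HSCs, and for the difference in the age effect between LT-HSCs and ST-HSCs, 0 were called, against 1 with DESeq2. A minimum of 10 counts in every library removed each called member from the test by construction. For the other changes the cause was not tested.

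The summed alpha globin rows in bulk-HSCs had an adjusted p of 0.0815 to 0.127 with a library left out and of 0.000457 to 0.0442 under the other settings, and in ST-HSCs DESeq2 gave 0.0164. Differences that changed direction with a library left out were all short of the threshold: adjusted p of 0.960 to 1 for Car1, 0.763 to 1 for Gata1 and 0.961 to 1 for Klf1 with age in ST-HSCs, 0.822 to 0.999 for Alas2 with age in bulk-HSCs, 0.918 to 1 for Klf1 in young LT-HSCs against ST-HSCs, 0.564 to 0.992 for Alas2 in young LT-HSCs against bulk-HSCs, and 0.999905 to 1 for Hba-a2, the alpha globin sum, Klf1, Epor and Alas2 in aged LT-HSCs against ST-HSCs. Of all values of single genes under the alternatives 755 kept their direction and their side of the threshold, 60 lost it, 7 gained it and 19 changed direction. These include values that were not called in the main fit. With a library left out, the 2 calls of Epor were lost in 0 of 6 fits each. The call of Car1 with age was lost in 4 of 6, and that between young fractions in 5 of 6. The call of Hba-a2 was lost in 6 of 6.

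The labels do not say whether same-numbered libraries of one age come from the same animals. The correlations of their deviations from the group means were -0.0432 to 0.135 over 18 pairs, with a median of 0.0225 and 2 over 0.1. For differently numbered libraries of one age they were -0.125 to 0.0725 over 36 pairs, with a median of -0.0060 and 0 over 0.1. Pairing was thus not settled. The replicate block of the age fits joined same-numbered young and aged libraries, which come from different animals, so it does not test pairing. With it the age calls of the members held (adjusted p of 0.0100 for Epor, 0.0449 for Hba-a2 and 0.0448 for Car1). With a block by number within each age, Epor had an adjusted p of 0.0573 and Car1 of 0.00592 in young LT-HSCs against ST-HSCs. Over all genes, calls ranged from 9 to 290 around 57 with age in LT-HSCs, 26 to 448 around 109 in ST-HSCs, 115 to 741 around 253 in bulk-HSCs, 5 to 387 around 55 and 0 to 438 around 35 for young LT-HSCs against ST-HSCs and bulk-HSCs, 0 to 55 around 1 and 0 to 32 around 0 for aged LT-HSCs against them, and 0 to 83 around 0 and 0 to 122 around 1 for the differences in the age effect. Each highest count was that of DESeq2.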
